A study of Rattus norvegicus with 19 samples.

Results

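*Mapk3* and 8 genes that act with it in the extracellular signal-regulated kinase (ERK) pathway were followed across the 4 genotypes of a rat model of the 16p11.2 syndromes. *Mapk3* encodes ERK1 and lies inside the rearranged segment of rat chromosome 1. *Map2k1*, *Map2k2*, *Ksr1*, *Dusp6*, *Spry2*, *Spry4*, *Spred1* and *Etv5* lie outside it. The 9 genes were taken by symbol from the 32623 genes of the count tables, and all 9 passed the filter on low counts, which kept 15440 genes.

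Hippocampi of male Sprague Dawley rats were profiled by RNA sequencing, 1 library per animal, with 6 libraries of wild-type rats (wt), 5 of Dup/+, 4 of Del/Dup and 4 of Del/+. Del/+ rats carry 1 copy of the *Sult1a1* to *Spn* segment after a CRISPR/Cas9 deletion, Dup/+ rats carry 3 copies after a duplication, and Del/Dup rats carry a deleted and a duplicated chromosome and hence 2 copies, like wt. The rearranged alleles are constitutive, so every cell type carries them, and the rats were littermates on an outbred background. The study describes the hippocampi as adult, and the exact age at sampling was not given in the sources used here.

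In the ERK cascade, growth factor receptors load RAS with GTP, RAS recruits RAF kinases, RAF phosphorylates MEK1 and MEK2 (the products of *Map2k1* and *Map2k2*), and MEK phosphorylates ERK. Active ERK induces genes whose products damp the cascade, among them the phosphatase gene *Dusp6* and the sprouty genes *Spry2* and *Spry4*, so that the transcripts of such genes are often read as a gauge of ERK output. In the hippocampus the pathway is known for its part in synaptic plasticity and memory. The readout here is the amount of mRNA, and neither ERK protein nor its phosphorylation was part of these data.

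Libraries held between 16191192 and 38760645 reads in genes, and each held between 1128 and 4253 reads of *Mapk3*. Multi-mapped reads, those with over 1 alignment, made up 40.1% to 50.5% of the counted lines in all wt and Dup/+ libraries and in Del/+ replicate 4 (41.6%), against 57.8% to 76.3% in Del/+ replicates 1 to 3 and in all Del/Dup libraries. The labels of wt replicate 5 disagreed, its description giving wt and its genotype field Dup/+. It was counted as wt, and its *Mapk3* level of 92.6 counts-per-million (CPM) lay within the range of the other wt libraries. All 6 markers of hippocampal neurons were present in every group, with a summed level of 2425 to 3084 CPM in wt, 2141 to 2432 CPM in Del/+, 2158 to 3046 CPM in Dup/+ and 2015 to 2578 CPM in Del/Dup. None of the 6 was called by edgeR against wt, and 3 in Del/+ and 2 in Del/Dup had an unadjusted p under 0.05. The summed level of 6 choroid plexus markers ranged from 4.51 to 35.9 CPM in wt, from 6.93 to 1260 CPM in Del/+, from 7.97 to 409 CPM in Dup/+ and from 42.4 to 1213 CPM in Del/Dup, and of these markers 0 of 6 were called by edgeR in any comparison with wt while all 6 had an unadjusted p under 0.05 in Del/+ and in Del/Dup. The sum over 6 oligodendrocyte markers ran from 4995 to 6468 CPM in wt, from 5882 to 8819 CPM in Del/+, from 5888 to 6754 CPM in Dup/+ and from 5806 to 7089 CPM in Del/Dup. The called markers were the red cell gene *Hbb* in Dup/+ (log2 fold change 0.76, adjusted p = 0.0380 in edgeR), and in the slope per copy the red cell gene *Alas2* (0.34, adjusted p = 0.0366) and *Prkcd*, listed as a thalamus marker (-0.66, adjusted p = 0.0404). In bulk tissue, fewer cells of a type and less RNA per cell cannot be told apart.

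*Mapk3* (ENSRNOG00000053583) followed the number of copies. In the 6 wt libraries its lowest level was 88.5 CPM, its median 95.6 and its highest 98.4. The Del/+ libraries stood at 60.9, 46.3, 48.5 and 41.0 CPM for replicates 1 to 4. The Dup/+ libraries stood at 154, 147, 139, 129 and 135 CPM for replicates 1 to 5. All 4 Del/+ libraries lay below every wt library and all 5 Dup/+ libraries above. The Del/Dup libraries stood at 81.2, 98.5, 93.8 and 89.1 CPM for replicates 2 to 5, with replicate 2 just below the wt range, replicate 3 just above it and the other two inside it.

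**Figure D1:**
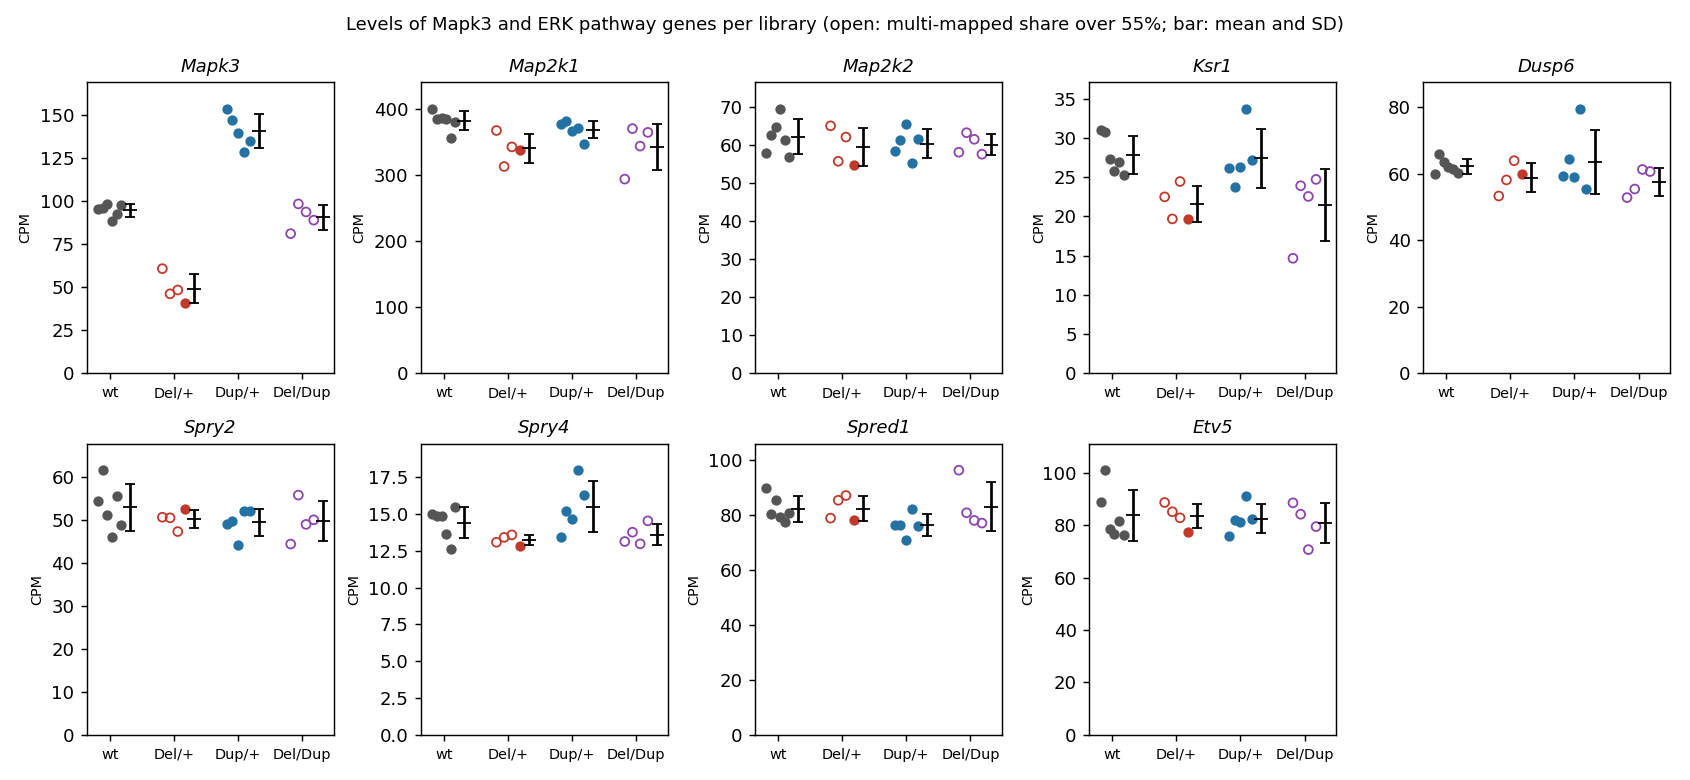
Level of *Mapk3* and the 8 other ERK pathway genes in each library, in CPM on a linear axis from 0, by genotype. Each point is 1 library, open where over 55% of its counted lines were multi-mapped, and the bar gives the group mean and SD. *Mapk3* is the gene whose groups separate on both sides of wt, while the feedback genes from *Dusp6* to *Etv5* overlap wt in every carrier group.

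The fold change of *Mapk3* against wt was 0.519 in Del/+ (log2 fold change -0.95, SE 0.0816, adjusted p = 2.40e-07) and 1.49 in Dup/+ (log2 fold change 0.57, SE 0.0732, adjusted p = 0.000224), by the quasi-likelihood test of edgeR with Benjamini-Hochberg adjustment over all 15440 genes. Both changes passed the threshold. Had wt replicate 5 been assigned by its genotype field, the Dup/+ change would be 0.48 on the log2 scale and would no longer pass (adjusted p = 0.101), while the Del/+ change still would (adjusted p = 8.64e-05). In Del/Dup the log2 fold change was -0.064 (-0.11 to -0.016 with 1 library left out), with a 95% interval from -0.23 to 0.10 (adjusted p = 0.715). With a term for the multi-mapped class, a fit that rests on Del/+ replicate 4 as the 1 carrier of a deletion with a low share, the Del/Dup value was -0.40 (adjusted p = 0.289), outside that interval. Del/+ also differed from Del/Dup (log2 fold change -0.88, adjusted p = 3.09e-06). Between these groups the difference was -0.81 when only libraries with a high multi-mapped share were compared (adjusted p = 0.0150). Over all 19 libraries *Mapk3* rose by 0.75 on the log2 scale per copy (SE 0.0490, adjusted p = 9.56e-10).

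Among the genes of the segment *Mapk3* was an ordinary member. Of 27 segment genes tested, 17 had a lower log2 fold change than *Mapk3* in Del/+ and 9 a higher one, and in Dup/+ 16 were lower and 10 higher. The median of the 27 was -1.01 in Del/+, 0.51 in Dup/+ and -0.064 in Del/Dup, where *Mapk3* was itself the median gene. The genes whose levels followed *Mapk3* most closely over the 19 libraries were also in the segment, *Kctd13* (r = 0.989), the glycolytic enzyme gene *Aldoa* (r = 0.987) and *Coro1a* (r = 0.985). These coefficients are descriptions: the points share the genotype, and no test was made. Outside the listed segment genes the closest were AABR07005779.2 (r = 0.969), AABR07070225.1 (r = 0.898), *Ptx3* (r = 0.856), *Rad21l1* (r = 0.848) and *Tgfb1i1* (r = 0.847). AABR07005779.2 shares its name stem with the listed segment gene AABR07005779.7, and whether it lies in the segment was not checked. Its log2 fold changes were -0.95 in Del/+ and 0.61 in Dup/+. When each library was taken as its deviation from its group mean, so that genotype no longer entered, the closest outside the segment were *Otub1* (r = 0.859), *Camkv* (r = 0.829), *Sgta* (r = 0.822), *Eif5a* (r = 0.815) and *Fads2* (r = 0.814), beside r = 0.809 for the segment gene *Kctd13*.

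Of the 9 genes, *Mapk3* was the 1 called in Del/+, against 0.771% of all genes tested, and likewise the 1 called in Dup/+, against 0.272%. In Del/Dup 0 of the 9 were called by edgeR, against 0.0907% of all genes. *Mapk3* was again the 1 called between Del/+ and Del/Dup, against 0.175%, and in the slope per copy, against 0.576%. With DESeq2 the counts of called members were the same in all 5 comparisons, against 3.77% of all genes in Del/+, 0.518% in Dup/+, 1.19% in Del/Dup, 0.447% between Del/+ and Del/Dup and 1.05% in the slope. An unadjusted p under 0.05 was reached by 3 of the 9 in Del/+ (18.4% of all genes tested), 1 in Dup/+ (8.94%), 2 in Del/Dup (16.2%), 1 between Del/+ and Del/Dup (8.48%) and 3 in the slope (11.5%). The range of levels did not overlap that of wt for 2 of the 9 genes in Del/+ (*Mapk3* and *Ksr1*), against 4.94% of all genes tested, for 1 in Dup/+ (*Mapk3*), against 1.17%, and for 1 in Del/Dup (*Ksr1*), against 2.56%. The comparisons with wt share the 6 wt libraries.

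**Figure D2:**
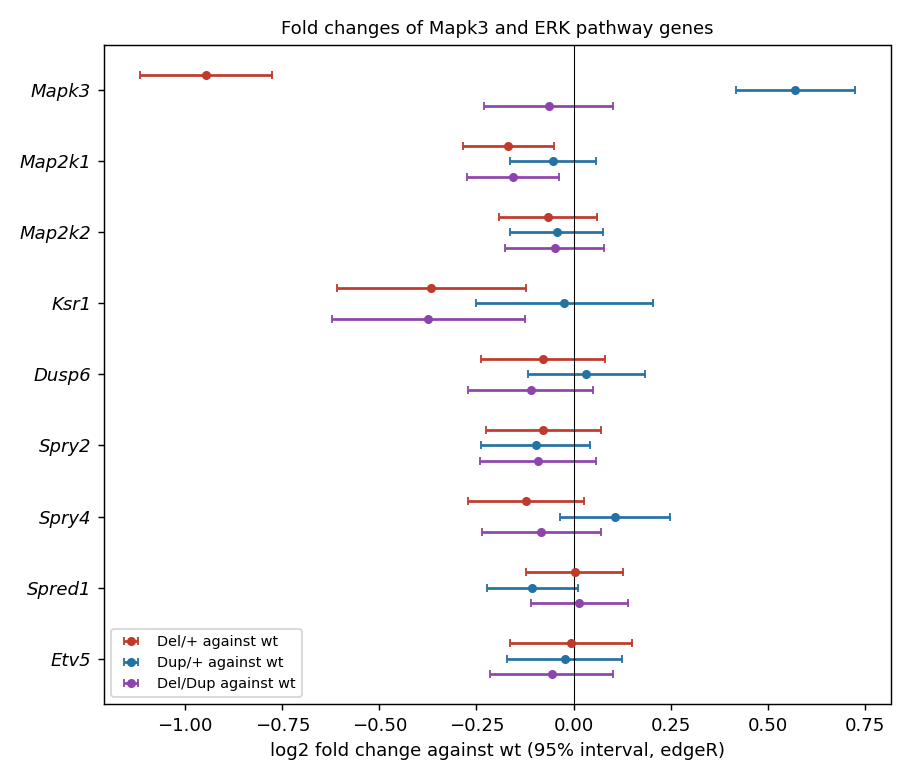
Log2 fold change against wt of the same 9 genes in Del/+, Dup/+ and Del/Dup, with the 95% interval from edgeR. The *Mapk3* intervals lie away from 0 in Del/+ (-1.12 to -0.78) and Dup/+ (0.42 to 0.72). The intervals of *Map2k1* and *Ksr1* lie below 0 in Del/+ and in Del/Dup, though neither gene passed the adjusted threshold.

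Upstream of ERK, *Map2k1* (ENSRNOG00000010176), which encodes MEK1, ran from 356 to 400 CPM in wt with a median of 384. It stood at 367, 313, 342 and 338 CPM in Del/+, at 377, 381, 367, 370 and 347 CPM in Dup/+, and at 294, 370, 343 and 364 CPM in Del/Dup. Its log2 fold changes were -0.17 in Del/+ (adjusted p = 0.125), -0.052 in Dup/+ (adjusted p = 0.825) and -0.16 in Del/Dup (adjusted p = 0.209) in edgeR. None passed, and the groups overlapped in each comparison, with 3 of 4 Del/+ and 2 of 4 Del/Dup libraries below the wt range. Without Del/Dup replicate 2 the Del/Dup value was -0.089 (adjusted p = 0.638).

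*Map2k2* (ENSRNOG00000020005), which encodes MEK2, showed less. It ran from 56.8 to 69.4 CPM in wt with a median of 61.9, and stood at 65.0, 55.7, 62.0 and 54.6 CPM in Del/+, at 58.3, 61.2, 65.4, 55.3 and 61.4 CPM in Dup/+ and at 58.0, 63.2, 61.4 and 57.5 CPM in Del/Dup. The groups overlapped throughout. Its log2 fold changes lay between -0.066 (Del/+) and -0.043 (Dup/+), with 95% intervals that reached no further than -0.19 and 0.078. With the term for the multi-mapped class *Map2k2* stood at -0.19 in Del/+ and -0.21 in Del/Dup. With 1 library left out the Del/+ value lay between -0.11 and -0.023. The Dup/+ value then lay between -0.072 and -0.0090 and the Del/Dup value between -0.074 and -0.015.

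*Ksr1* (ENSRNOG00000012818) encodes a scaffold that brings RAF, MEK and ERK together. Its wt libraries ran from 25.3 to 31.0 CPM with a median of 27.1. The Del/+ libraries stood at 22.5, 19.7, 24.5 and 19.7 CPM and the Del/Dup libraries at 14.7, 23.9, 22.6 and 24.7 CPM, all 8 below the wt range. The Dup/+ libraries, at 26.1, 23.7, 26.3, 33.7 and 27.2 CPM, reached past the wt range on both sides.

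The log2 fold change of *Ksr1* was -0.37 in Del/+ (SE 0.117, adjusted p = 0.113) and -0.37 in Del/Dup (SE 0.119, adjusted p = 0.173), and -0.024 in Dup/+ (95% interval -0.25 to 0.20, adjusted p = 0.973) in edgeR. The Del/+ change passed when the fit held the compared groups only (adjusted p = 0.0485) or left out Del/Dup replicate 2, the library at 14.7 CPM (adjusted p = 0.0390). Over its alternatives the adjusted p of the Del/+ change ran up to 0.317. Without Del/Dup replicate 2 the Del/Dup value was -0.23 (adjusted p = 0.553). Del/+, with 1 copy of the segment, differed from Del/Dup, with 2, by 0.0085 (95% interval -0.26 to 0.28). Without Del/Dup replicate 2 this difference was -0.13.

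The negative values of *Map2k1* and *Ksr1* in Del/+ and Del/Dup did not pass the adjusted threshold in the edgeR fit of all 19 libraries. In Dup/+ both genes were also below 0 (-0.052 and -0.024). Del/+ and Del/Dup also hold the libraries with many multi-mapped reads, and libraries with high choroid plexus markers and low neuron markers. In the same groups 5 of 6 oligodendrocyte markers in Del/+ (median log2 fold change 0.31) and 3 of 6 in Del/Dup (0.20), and 2 of 3 thalamus markers in Del/+ (0.44), had an unadjusted p under 0.05. So did 2 of 7 astrocyte markers in Del/+ (-0.11) and 1 of 7 in Del/Dup (-0.12). Of microglia markers it was 2 of 5 in Del/+ (-0.12) and 1 of 5 in Del/Dup (-0.061). The part of each in these values was not tested beyond the fits that follow. Del/+ replicate 4, with a multi-mapped share of 41.6%, held 338 CPM of *Map2k1* and 19.7 CPM of *Ksr1*, each below every wt library. This library stands apart from its own group, with a chi-square per degree of freedom over genes of 35.4 to 59.2 against the other Del/+ libraries, which gave 13.3 to 26.7 among themselves. With a term for the multi-mapped class the Del/+ changes were -0.18 for *Map2k1* and -0.50 for *Ksr1* on the log2 scale (adjusted p = 0.451 and 0.288 in edgeR), and that fit rests on this 1 library of low share. With the log2 choroid plexus marker sum as a covariate they were -0.15 and -0.30 (adjusted p = 0.272 and 0.278), an alternative chosen after seeing the data. *Mapk3* stayed called in Del/+ in both fits, at -1.21 (adjusted p = 2.81e-05) and -0.92 (adjusted p = 1.68e-06).

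**Figure D3:**
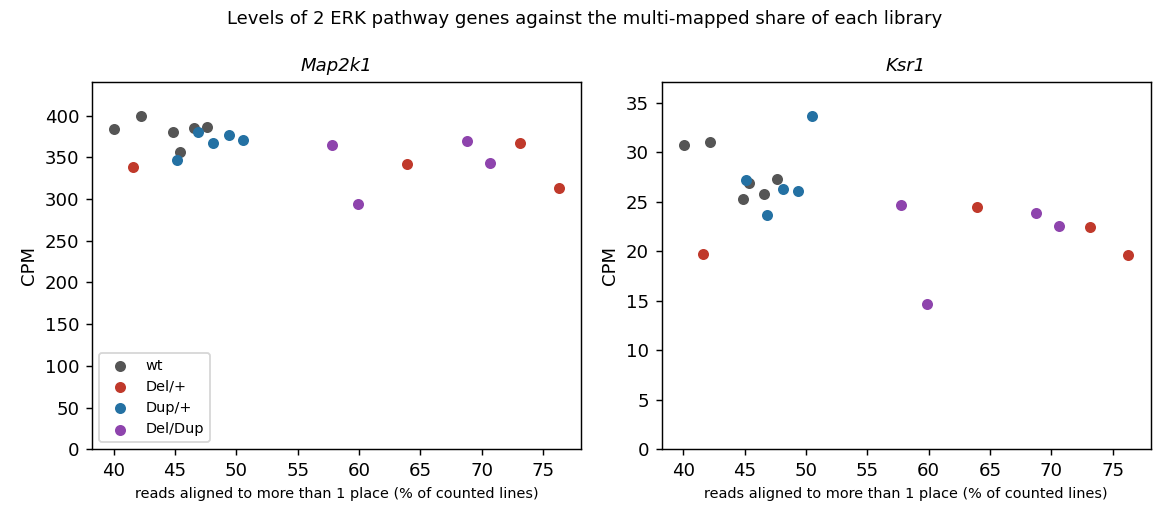
Levels of *Map2k1* and *Ksr1* in CPM (linear axes from 0) against the percentage of counted lines that were multi-mapped in each library, coloured by genotype. The single Del/+ library at 41.6% lies at the left among the wt and Dup/+ libraries in its multi-mapped share. It lies below the wt libraries in both panels, and it stands apart from its own group over all genes. The Del/Dup libraries spread from 57.8% to 70.7%.

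For the feedback genes, the stretches of 250 bases before the transcription start of *Dusp6* and of one annotated start of *Spry2* are shown, since these genes are usual transcriptional readouts of ERK and their slopes on the copies of *Mapk3* did not pass the test. Capitals mark the letters searched, on both strands: a long form of the site bound by ETS factors, which ERK activates (CCGGAA), and the core of the cyclic AMP response element (TGACG). The sequences are from RefSeq on GRCr8, a different build from that of the counts.
Dusp6, chr7:35979354-35979603, plus strand: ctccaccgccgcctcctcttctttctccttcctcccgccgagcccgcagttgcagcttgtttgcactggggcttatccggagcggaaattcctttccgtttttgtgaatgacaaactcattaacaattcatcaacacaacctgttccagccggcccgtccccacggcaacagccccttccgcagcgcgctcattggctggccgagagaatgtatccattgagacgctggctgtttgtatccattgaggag
Spry2, chr15:89111927-89112176, minus strand: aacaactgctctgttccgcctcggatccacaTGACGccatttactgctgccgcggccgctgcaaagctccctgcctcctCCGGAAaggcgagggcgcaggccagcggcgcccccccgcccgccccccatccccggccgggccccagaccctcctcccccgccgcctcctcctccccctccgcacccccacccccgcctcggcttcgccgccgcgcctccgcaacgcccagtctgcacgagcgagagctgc
The long ETS form was present in 14.95% of the 33469 promoter windows of 300 bases in the reference table, the cyclic AMP response core in 21.2% and the serum response CArG box in 1.64%. The *Dusp6* window held none of these. The shorter ETS core GGAA, which the long form contains, was in 95.8% of the windows and occurs 6 times, over both strands, in the *Dusp6* stretch printed here. The *Spry2* window held the long ETS form and the cyclic AMP response core once each, and its other annotated start held neither. The *Spry4* window held the long ETS form once, those of *Map2k2* and *Ksr1* the cyclic AMP response core once each, and those of *Spred1*, *Etv5* and *Map2k1* neither of these nor the CArG box.

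*Dusp6* (ENSRNOG00000023896) encodes a phosphatase that acts on ERK in the cytoplasm. It ran from 60.0 to 66.0 CPM in wt with a median of 61.8, and stood at 53.4, 58.2, 64.0 and 60.1 CPM in Del/+, at 59.5, 64.5, 59.0, 79.6 and 55.3 CPM in Dup/+ and at 52.9, 55.5, 61.4 and 60.7 CPM in Del/Dup. Every group overlapped wt, and Dup/+ replicate 4 stood far above the rest. The log2 fold changes were -0.079 in Del/+ (95% interval -0.24 to 0.081), 0.033 in Dup/+ (-0.12 to 0.18) and -0.11 in Del/Dup (-0.27 to 0.051), and none passed. The Del/+ value was -0.034 without Del/+ replicate 1 and -0.12 without Del/+ replicate 3. Without Dup/+ replicate 4 the Dup/+ value was -0.062, so its sign rests on that library.

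*Spry2* (ENSRNOG00000010058) and *Spry4* (ENSRNOG00000013851) encode sprouty proteins, which hold back receptor signalling to RAS and RAF. *Spry2* ran from 46.1 to 61.6 CPM in wt with a median of 52.8, and stood at 50.6, 50.5, 47.3 and 52.5 CPM in Del/+, at 49.0, 49.8, 44.3, 52.1 and 52.0 CPM in Dup/+ and at 44.4, 55.8, 49.0 and 50.0 CPM in Del/Dup. All of its groups overlapped, with log2 fold changes between -0.098 (Dup/+) and -0.078 (Del/+). With the term for the multi-mapped class *Spry2* stood at -0.015 in Del/+ and -0.0054 in Del/Dup, and without wt replicate 2 at -0.026 in Del/+, -0.049 in Dup/+ and -0.035 in Del/Dup. *Spry4* ran from 12.6 to 15.5 CPM in wt with a median of 14.9, and stood at 13.1, 13.4, 13.6 and 12.8 CPM in Del/+, at 13.4, 15.2, 14.6, 17.97 and 16.3 CPM in Dup/+ and at 13.1, 13.8, 12.97 and 14.5 CPM in Del/Dup.

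*Spry4* had the smallest p of the feedback inhibitors in the slope, at 0.12 on the log2 scale per copy (SE 0.0371, unadjusted p = 0.00487, adjusted p = 0.210 in edgeR), and did not pass. Its log2 fold changes were -0.12 in Del/+ (95% interval -0.27 to 0.026), 0.11 in Dup/+ (-0.034 to 0.25) and -0.083 in Del/Dup (-0.24 to 0.070), and every group overlapped wt. The Dup/+ value was 0.048 without Dup/+ replicate 4 and 0.024 with the other reading of wt replicate 5. For scale, the slope of *Mapk3* was 0.75 per copy.

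*Spred1* (ENSRNOG00000005209), a sprouty-related inhibitor of RAS and RAF, ran from 77.4 to 89.9 CPM in wt with a median of 80.5. It stood at 78.8, 85.3, 87.0 and 78.0 CPM in Del/+, at 76.4, 76.2, 70.9, 82.0 and 75.8 CPM in Dup/+ and at 96.2, 80.7, 77.9 and 77.0 CPM in Del/Dup. In Dup/+ 4 of 5 libraries lay below the wt range, with a log2 fold change of -0.11 (95% interval -0.22 to 0.012, adjusted p = 0.594 in edgeR), opposite in sign to the copy number. Its Del/+ and Del/Dup log2 fold changes were 0.0027 and 0.014.

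*Etv5* (ENSRNOG00000001785), an ETS transcription factor gene induced through ERK, ran from 76.3 to 101 CPM in wt with a median of 80.0. It stood at 88.7, 85.2, 82.9 and 77.5 CPM in Del/+, at 75.8, 82.1, 81.4, 91.1 and 82.3 CPM in Dup/+ and at 88.6, 84.2, 70.7 and 79.5 CPM in Del/Dup. The groups overlapped throughout, and its log2 fold changes of -0.0064 in Del/+, -0.023 in Dup/+ and -0.056 in Del/Dup had 95% intervals that stayed between -0.21 and 0.15. With the term for the multi-mapped class *Etv5* stood at -0.12 in Del/+ and -0.20 in Del/Dup.

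The feedback genes were then compared between animals. On deviations of log2 CPM from the group means, 21 pairs among *Mapk3*, *Dusp6*, *Spry2*, *Spry4*, *Spred1*, *Etv5* and the immediate-early gene *Egr1* were correlated over 19 libraries, and 0 passed an adjusted p of 0.05 by permutation within groups. The pair with the largest coefficient, *Spry2* and *Etv5*, had r = 0.48 (permutation p = 0.0979, adjusted p = 0.610) and Spearman's rho = 0.50 (permutation p = 0.0611, adjusted p = 0.606), and r was 0.17 without the 2 libraries farthest from the median of *Spry2*. No p was computed for that setting, and leaving out those libraries narrows the range of *Spry2* by design. Within the 12 libraries of low multi-mapped share r was 0.79 (adjusted permutation p = 0.226), and within the 7 of high share -0.052 (adjusted permutation p = 1). *Mapk3* with *Egr1* had r = -0.43 (permutation p = 0.0771, adjusted p = 0.610) and rho = -0.44 (permutation p = 0.0866, adjusted p = 0.606).

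The wider pathway was read from a list of 125 genes in 10 roles, of which 124 were matched in the files and 123 were tested. By edgeR the list held 1 called gene in Del/+ (0.771% of all genes) and in Dup/+ (0.272%), *Mapk3* itself, and 0 in Del/Dup (0.0907%). At an unadjusted p under 0.05 there were 29 genes in Del/+, 9 higher and 20 lower (23.6%, against 18.4% of all genes tested), 13 in Dup/+ (10.6%, against 8.94%) and 21 in Del/Dup (17.1%, against 16.2%). The median log2 fold change of the list was -0.038 in Del/+, -0.00999 in Dup/+ and -0.030 in Del/Dup, beside 0.00048, -0.0018 and 0.0012 for all genes. DESeq2 called 6 list genes in Del/+ (*Fgfr1*, *Gab1*, *Rasgrp3*, *Rasal1*, *Mapk3* and *Mknk2*, 3.77% of all genes being called), 3 in Dup/+ (*Rasa1*, *Mapk3* and *Elk1*, against 0.518% of all genes) and 0 in Del/Dup.

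**Figure D4:**
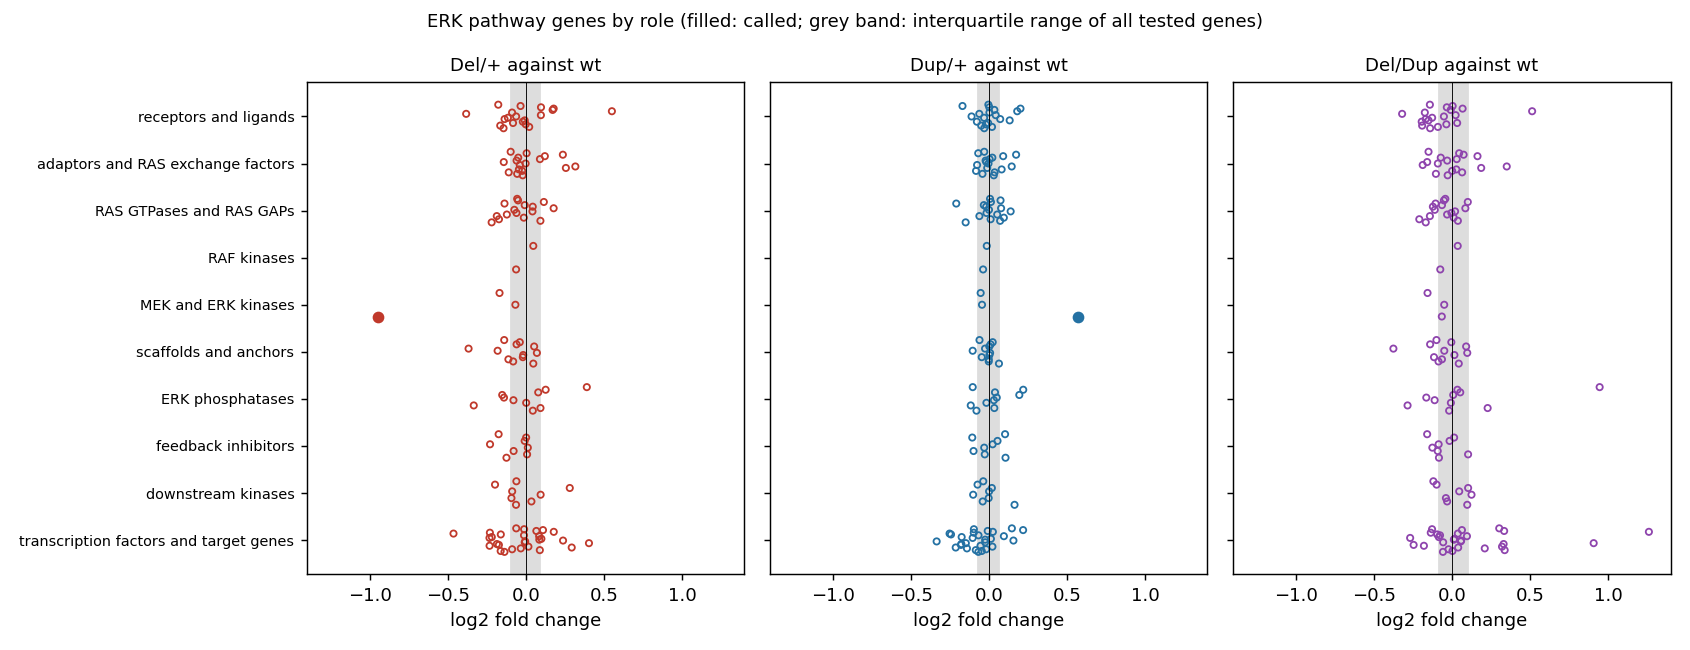
Log2 fold change against wt of the 123 tested ERK pathway genes, 1 point per gene, in 10 roles, for each carrier group. Filled points were called by edgeR and the grey band is the interquartile range of all 15440 genes tested. The filled point is *Mapk3*, at -0.95 in Del/+ and 0.57 in Dup/+, and the Del/Dup panel has no filled point.

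In the slope per copy edgeR called 2 of the 123 list genes, against 0.576% of all genes tested. Beside *Mapk3*, the second list gene called by edgeR in any comparison was *Dusp4*, which encodes a nuclear phosphatase of ERK and of related kinases. Its mean level in CPM with SD was 39.0 ± 3.64 for the 4 Del/+ libraries, 43.3 ± 2.43 for the 6 of wt, 43.5 ± 4.49 for the 4 of Del/Dup and 49.6 ± 4.80 for the 5 of Dup/+. It rose by 0.17 on the log2 scale per copy (SE 0.0373, adjusted p = 0.0289 in edgeR), and the ranges of neighbouring groups overlapped. Against wt alone it did not pass in Del/+ (-0.15, adjusted p = 0.291), Dup/+ (0.20, adjusted p = 0.412) or Del/Dup (0.0086, adjusted p = 0.970). The slope call was lost with a term for the multi-mapped class (0.20, adjusted p = 0.0713), with the other reading of wt replicate 5 (0.16, adjusted p = 0.0563), and without any one of Dup/+ replicates 2, 3 and 5 or Del/+ replicates 1, 2 and 4 (0.15 to 0.18, adjusted p up to 0.115). The markers *Alas2* and *Prkcd* were called in the same comparison, and their part in this slope was not tested.

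By role, the genes with the smallest p in Del/+ were the receptor gene *Fgfr1* (-0.38, adjusted p = 0.0903), the adaptor gene *Gab1* (0.24, adjusted p = 0.0831), the RAS GTPase-activating gene *Rasal1* (-0.19, adjusted p = 0.0961), *Braf* (-0.062, adjusted p = 0.601), the phosphatase gene *Dusp9* (-0.33, adjusted p = 0.268), *Spred3* (-0.23, adjusted p = 0.141), *Mknk2*, which encodes a kinase acting on a translation initiation factor (-0.20, adjusted p = 0.0628), and the ETS factor gene *Etv1* (0.24, adjusted p = 0.106), all log2 fold changes from edgeR. *Dusp9* stood at -0.97 with a term for the multi-mapped class (adjusted p = 0.0635) and at -0.16 without Del/+ replicate 4 (adjusted p = 0.625). *Gab1* passed with a term for the multi-mapped class (0.47, adjusted p = 0.00937), without Del/+ replicate 1 (0.29, adjusted p = 0.0374) and in DESeq2, and stood at 0.15 without Del/+ replicate 4 (adjusted p = 0.254). *Mknk2* and *Fgfr1* passed without Del/Dup replicate 2 (both adjusted p = 0.0286), *Mknk2* also without Del/Dup replicate 3 (adjusted p = 0.0409) or Del/+ replicate 1 (adjusted p = 0.0395), and *Etv1* without Del/+ replicate 3 (0.31, adjusted p = 0.0338).

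In Dup/+ the smallest p outside *Mapk3* belonged to *Elk1*, which encodes an ETS factor phosphorylated by ERK (-0.24, unadjusted p = 0.000447, adjusted p = 0.121), and to *Rasa1*, which encodes a RAS GTPase-activating protein (0.14, unadjusted p = 0.000888, adjusted p = 0.178). Of the 19 receptor and ligand genes tested there, 0 were called by edgeR and 2 had an unadjusted p under 0.05, a share near the 8.94% of all genes. *Gab1* stood at 0.17 (adjusted p = 0.412), *Braf* at -0.036, *Ksr2* at -0.10 (-0.021 with the other reading of wt replicate 5) and *Mknk2* at -0.072 (-0.048 without wt replicate 3). None of these passed in edgeR.

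In Del/Dup the immediate-early gene *Egr2* (1.26, adjusted p = 0.156) and the phosphatase gene *Dusp1* (0.95, adjusted p = 0.174) had the largest log2 differences, neither past the threshold. *Egr2* ran from 1.998 to 9.95 CPM there and from 1.096 to 3.56 CPM in wt, so the groups overlapped. Without Del/Dup replicate 2 the difference was 0.71 for *Egr2* (adjusted p = 0.606) and -0.20 for *Fgfr1* (adjusted p = 0.603). *Fgfr1* (-0.32, adjusted p = 0.192), *Rapgef2*, which encodes an exchange factor for RAP1 (-0.16, adjusted p = 0.174), *Rasal1* (-0.14, adjusted p = 0.230) and *Mknk1* (-0.12, adjusted p = 0.310) also stayed outside. *Mknk1* stood at -0.059 without Del/Dup replicate 2 and at -0.036 with the term for the multi-mapped class, and *Rasal1* at -0.27 with that term and -0.091 with the choroid plexus covariate. *Rapgef2* passed without Del/Dup replicate 3 (-0.21, adjusted p = 0.0491). Between Del/+ and Del/Dup, 7 of the 123 genes (5.69%) had an unadjusted p under 0.05, against 8.48% of all genes, and *Mapk3* was the 1 called.

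In the slope per copy, after *Mapk3* and *Dusp4*, the smallest p by role were those of the early response gene *Ier3* (-0.25, adjusted p = 0.168), *Rasa3* (0.086, adjusted p = 0.176), *Rasgrp3* (-0.13, adjusted p = 0.217), the ribosomal S6 kinase gene *Rps6ka1* (-0.13, adjusted p = 0.312), *Ksr1* (0.17, adjusted p = 0.373), *Fgfr1* (0.15, adjusted p = 0.379) and *Araf* (-0.030, adjusted p = 0.667), all in edgeR. With a term for the multi-mapped class the slopes of *Ksr1* and *Fgfr1* were 0.072 and 0.060. Of the list, 15 genes (12.2%) had an unadjusted p under 0.05, against 11.5% of all genes tested. Of 17 kinases of the other MAP kinase branches, such as those of JNK and p38, *Mapk7*, *Mapk13* and *Map2k3* did not pass the filter on low counts. The 14 tested gave 0 calls in each of the 5 comparisons by edgeR, in which 0.0907% to 0.771% of all genes were called. An unadjusted p under 0.05 was reached by 1 in Del/+ (18.4% of all genes), 1 in Dup/+ (8.94%), 5 in Del/Dup (16.2%), 2 between Del/+ and Del/Dup (8.48%) and 2 in the slope (11.5%). DESeq2 called 1 of the 14, in Del/+ alone (3.77% of all genes), the atypical MAP kinase gene *Mapk6* (log2 fold change 0.22, adjusted p = 0.0229 in DESeq2 and 0.0734 in edgeR), which is named here after its values were seen.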

How the data were processed

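Hippocampal RNA of 19 rats was sequenced as single-end reads of 50 bases. Per the methods, the authors used Hisat2 for alignment to Rno6 (Ensembl models) and HTSeq-count for counting, and deposited 1 table of unnormalized read counts for each library. The labels' protocol describes rRNA removal, while their molecule field names polyA RNA, and this was not settled.

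Groups came from the description field. Tests excluded the 5 lines that name no gene, of which the line for reads in no gene held 6.94% to 16.1% of a library. Of 24345 genes with a read, 15440 passed filterByExpr. Counts were scaled by TMM and tested with edgeR 4.0.16 (R 4.3.3, prior count 2), fitting all 19 together by group, or by a slope on copies. SE and 95% intervals came from the F statistic. The threshold was 0.05 after Benjamini-Hochberg adjustment. DESeq2 1.42.0, other scalings and filters, a replicate block, batch terms and left-out libraries were alternatives. Correlations used 100000 permutations within groups. The tests were checked on simulated counts.

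The members and gene lists were chosen with earlier results of these data known. Genes were named if members, called, or of smallest p in a role, and by likeness to *Mapk3*. Some genes, and the planned results that need them, are not reported here, and the pathway list was counted without them. Pairs of libraries within a group differed beyond sampling noise. Nothing showed whether animals shared litters across groups by number, and p-values measure the spread between animals.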

Additional observations from a re-analysis of the deposited data

How the results depend on the processing

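Over the 16 summary results (counts of calls and *Mapk3* itself), 419 of 441 alternative values were held the same. A *Mapk3* value was held the same if it kept its sign and its side of the threshold. A count was held the same if it was equal or within 1.5 times. For the 64 log2 values of single genes other than *Mapk3*, 1789 of 1859 kept their sign and their side of the threshold. Of the rest, 46 changed sign and 24 crossed the threshold. Of the 64, 23 moved by over 1.5 times or changed sign with the term for the multi-mapped class, 36 when 1 library was left out, and at most 13 with any other single alternative. The causes of these changes were not tested. Deviations from group means of libraries with the same number had r from -0.22 to 0.14 over 24 pairs. These values cannot show whether the numbers pair the animals, since pairs of different number were not compared. The fit with the replicate number as a block gave *Mapk3* at -0.96 in Del/+, 0.58 in Dup/+ and -0.015 in Del/Dup, left the counts of called members and pathway genes as they were, and turned *Spred1* to -0.019 in Del/+.

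DESeq2 called 6 pathway genes in Del/+ (3.77% of all genes), 3 in Dup/+ (0.518%) and 0 in Del/Dup (1.19%). With the compared groups only, 2 members and 2 pathway genes were called in Del/+ (1.19% of all genes). The term for the multi-mapped class gave 2 pathway genes in Del/+ (0.518% of all genes) and 1 in the slope (0.278%), and *Spred1* at -0.074 in Del/+ and -0.088 in Del/Dup. With wt replicate 5 as Dup/+, 0 members and 0 pathway genes were called in Dup/+ (0.0777% of all genes, *Mapk3* at 0.48) and 1 pathway gene in the slope (0.499%), with *Spred1* at -0.014 in Del/+ and -0.0021 in Del/Dup and *Spry2* at 0.0022 per copy. With the choroid plexus covariate, chosen after seeing the data, *Spred1* was -0.021 in Del/+ and -0.032 in Del/Dup, *Etv5* 0.016 in Del/+, and *Ksr1* 0.015 in Dup/+ and -0.033 between Del/+ and Del/Dup. Scaling by library size alone put *Etv5* at 0.013 in Del/+, and no filter on low counts put it at 0.0017 and *Map2k1* at 0.0037 between Del/+ and Del/Dup.

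Leaving out 1 library gave 1 to 2 members and 1 to 4 pathway genes in Del/+, 0 to 1 pathway genes in Del/Dup and 1 to 2 in the slope, while the share of all genes called went from 0.285% to 2.23% in Del/+, from 0.013% to 1.39% in Del/Dup and from 0.317% to 0.803% in the slope. *Spred1* then ranged over -0.026 to 0.035 in Del/+ and over -0.064 to 0.051 in Del/Dup. *Etv5* ranged over -0.036 to 0.058 in Del/+, -0.061 to 0.039 in Dup/+, -0.10 to 0.012 in Del/Dup and -0.027 to 0.0063 per copy. In Dup/+, *Dusp6* ranged over -0.062 to 0.079, *Ksr1* over -0.11 to 0.026 and *Braf* over -0.069 to 0.0017. Between Del/+ and Del/Dup, *Map2k1* ranged over -0.079 to 0.027 and *Ksr1* over -0.13 to 0.085. Per copy, *Map2k2* ranged over -0.012 to 0.027 and *Spry2* over -0.030 to 0.0077.

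For the 21 correlations between gene pairs, 66 of 84 alternative values kept their direction and their side of the threshold and 18 changed sign, with 0 pairs called in the pooled data. Within the libraries of high multi-mapped share r was -0.057 for *Mapk3* with *Etv5*, -0.052 for *Dusp6* with *Spry2*, -0.31 for *Dusp6* with *Spred1*, -0.80 for *Dusp6* with *Etv5*, -0.052 for *Spry2* with *Etv5*, -0.31 for *Spry4* with *Spred1*, -0.17 for *Dusp6* with *Egr1* and -0.57 for *Spry2* with *Egr1*. Within those of low share it was -0.27 for *Mapk3* with *Etv5*, 0.31 for *Spry2* with *Spred1*, 0.089 for *Spry4* with *Egr1* and -0.036 for *Spred1* with *Egr1*. Without the 2 libraries farthest from the median it was -0.34 for *Mapk3* with *Etv5*, -0.19 for *Dusp6* with *Spred1*, -0.16 for *Dusp6* with *Etv5* and 0.15 for *Spry4* with *Egr1*. On CPM scaled by library size alone it was -0.10 for *Mapk3* with *Spry2* and -0.19 for *Mapk3* with *Etv5*.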
